A study of Homo sapiens with 20 samples.

Results

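The genes described here are 8 genes of the metallothionein and zinc response, chosen by their symbols from the 57773 genes of both count tables. They are the metallothionein genes MT2A, MT1X, MT1E, MT1F, MT1G and MT1M, the zinc exporter SLC30A1 (also called ZnT1) and the zinc-sensing transcription factor MTF1. They were measured by RNA-seq in 10 conditions and 20 deposited samples of LNCaP, a cell line derived from human prostate adenocarcinoma. In the silencing experiment, LNCaP cells were transfected for 2 days with 20 nM of a nontarget siRNA pool (siNTC, n = 2) or of a pool against EHMT1 (siEHMT1, n = 2). EHMT1, or GLP, is a lysine methyltransferase best known for mono- and dimethylating histone H3 lysine 9. In the induction experiment, 4 stable LNCaP lines carried a tetracycline-inducible EHMT1 open reading frame on a lentiviral plasmid, either wild-type (WT) or with lysine-to-arginine changes (K450R, K451R or both together, K450RK451R). Each line received vehicle (Veh) or 0.25 µg/mL doxycycline (Dox) for 2 days. All 8 stable-line conditions keep the endogenous EHMT1 gene, there is 1 line for each construct, and no line without the insert was treated with Dox here, so the action of the drug and of the induced protein cannot be told apart. The question is how the zinc-binding and zinc-exporting genes behaved when EHMT1 was silenced, and when the wild-type or the lysine mutants were induced.

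Metallothioneins are small, cysteine-rich proteins that bind zinc and copper, and also cadmium, and buffer their free level in the cell. When zinc rises, MTF1 binds metal response elements in promoters and raises the transcription of metallothionein genes and of SLC30A1, whose product pumps zinc out across the plasma membrane. The normal prostate epithelium is known for an unusually high zinc content, which falls in prostate cancer.

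The 16 columns of the stable lines were numbered 1 and 2 in each condition, and the columns of a condition differed by about the sampling noise and no more (chi-square per degree of freedom 0.995 to 1.02, where counting error alone gives about 1), so each pair was counted as 1 sample and its counts were summed. The siRNA samples of a group did differ beyond that noise (61.6 for siNTC and 13.4 for siEHMT1, or 6.58 and 6.17 without 2 pseudogenes that resemble ribosomal RNA), and nothing states that they came from separate cultures, so the p-values measure only the spread between these samples. Depth ranged from 5593400 to 12438006 counts in the siRNA samples and from 8436791 to 12407739 counts in the summed conditions. The shallowest library, siNTC replicate 2, stood apart with 10% of its counts on these 2 pseudogenes, against 0.0313% to 1% in the other samples and conditions. The luminal prostate markers KLK2, KLK3, FOLH1, HOXB13, KRT8 and KRT18 were detected in every library, and 2 of 3 basal markers (KRT5 and TP63) and the immune marker PTPRC were at 0 throughout. Other markers of cells that are not luminal were read, here as mean CPM (counts per 1000000 of the TMM library size) in the stable lines and siRNA samples. COL1A1 (stromal) had 34.9 and 16.4, ACTA2 (stromal) 4.19 and 5.66, VWF (endothelial) 5.02 and 12.1 and KRT14 (basal) 0.809 and 0.571. CD68 (immune) had 0.218 and 0.185 and LYZ (immune) 0.187 and 0.247, while COL1A2 and CDH5 were at 0. EHMT1 itself checked the labels of silencing and of Dox, but not which construct a line carried. It was 87.8 and 83.6 CPM in siNTC and 29.2 and 30.7 CPM in siEHMT1. With Dox, EHMT1 was 7.46-fold higher in the K450RK451R line and between 10.0-fold and 10.4-fold higher in the other 3, a gain that includes the inserted reading frame.

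The upstream sequences of MT2A, MT1X and SLC30A1 are shown because these 3 genes carry the core of the metal response element that MTF1 recognises, and that of MT1H because it holds the most matches although the gene had no read. Each is the 250 bases before the gene's start, written 5′ to 3′ on the gene's strand, from RefSeq (GRCh38.p14) and placed on GRCh37 by an exact match found at 1 position. Capitals mark the core, TGCACNC or TGCGCNC on either strand, where N is any base.
MT2A: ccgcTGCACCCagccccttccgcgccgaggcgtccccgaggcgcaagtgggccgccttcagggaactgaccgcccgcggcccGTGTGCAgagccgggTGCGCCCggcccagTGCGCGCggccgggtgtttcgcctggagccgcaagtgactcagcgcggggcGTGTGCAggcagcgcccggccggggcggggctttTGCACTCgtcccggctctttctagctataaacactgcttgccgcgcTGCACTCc
MT1X: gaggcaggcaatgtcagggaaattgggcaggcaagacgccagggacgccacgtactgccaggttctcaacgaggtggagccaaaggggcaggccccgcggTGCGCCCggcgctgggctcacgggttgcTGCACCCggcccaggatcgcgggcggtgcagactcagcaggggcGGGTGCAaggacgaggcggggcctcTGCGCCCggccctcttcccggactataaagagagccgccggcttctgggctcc
SLC30A1: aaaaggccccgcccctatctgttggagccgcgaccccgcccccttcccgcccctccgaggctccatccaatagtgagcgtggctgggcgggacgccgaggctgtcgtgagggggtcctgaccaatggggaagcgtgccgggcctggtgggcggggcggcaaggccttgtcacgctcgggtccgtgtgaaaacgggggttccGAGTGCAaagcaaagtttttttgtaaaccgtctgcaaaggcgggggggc
MT1H: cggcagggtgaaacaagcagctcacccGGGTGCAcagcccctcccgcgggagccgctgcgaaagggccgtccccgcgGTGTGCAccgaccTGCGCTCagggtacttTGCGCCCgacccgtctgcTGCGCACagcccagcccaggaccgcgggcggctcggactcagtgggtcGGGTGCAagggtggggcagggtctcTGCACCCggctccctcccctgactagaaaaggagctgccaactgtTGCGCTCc

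The MT2A sequence lies at chr16:56642246-56642495 (plus strand) and holds 7 matches. That of MT1X, at chr16:56716132-56716381 (plus strand), holds 4, and that of SLC30A1, at chr1:211752504-211752753 (minus strand), holds 1. MT1H, at chr16:56703476-56703725 (plus strand), holds 8. The 250 bases before MTF1, at chr1:38325265-38325514 (minus strand), hold none of these letters. The other sequences that matched were those of MT1B and MT4, with 3 matches each, while MT1E, MT1F, MT1G and MT1M had no entry. Of 35116 RefSeq promoters cut to the same length, 24.8% held at least 1 match, 0.37% at least 4 and 0.12% at least 5. MT1X, MT1B and MT1H each had a match 53 bases before the start on the gene's strand, and MT2A had 1 at 54 bases. No match overlapped another. A match describes the letters and is not a measured site of binding.

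**Figure D1:**
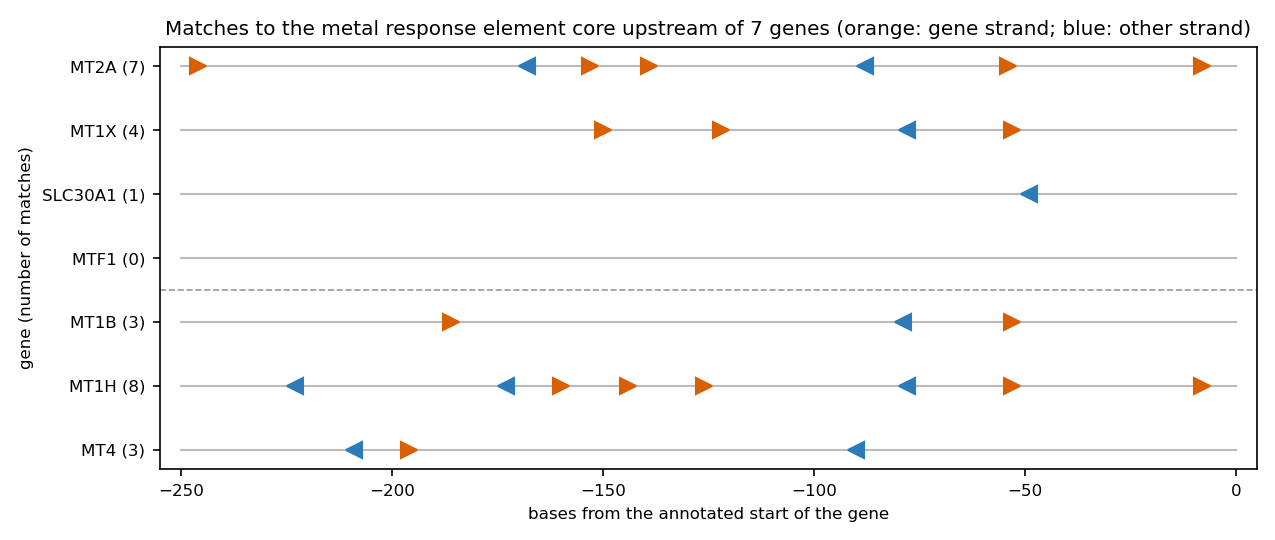
Matches to the metal response element core (triangles) in the 250 bases before the start of 7 genes. The x axis is the distance in bases from the annotated start, orange triangles are on the gene's strand and blue ones on the other, and the number after each gene is its count of matches. The 3 genes under the dashed line had no read in any library, and MT1H among them shows the most triangles, 8.

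All 6 metallothionein members lie in the metallothionein cluster of chromosome 16 (GRCh37, GENCODE genes). MT2A (ENSG00000125148) spans 56642496-56643409, MT1E (ENSG00000169715) 56659387-56661024, MT1M (ENSG00000205364) 56666571-56667893, MT1F (ENSG00000198417) 56691643-56694610 and MT1X (ENSG00000187193) 56716382-56718108, all on the plus strand. MT1G (ENSG00000125144) spans 56700642-56701977 on the minus strand. SLC30A1 (ENSG00000170385) and MTF1 (ENSG00000188786) are on the minus strand of chromosome 1, at 211744910-211752503 and 38275246-38325264. Because these genes arose by duplication, reads of 51 bases can fit several of them. Of the 51-base windows in their exons, 95.4% were found once in the genome for MT2A, 98.2% for MT1X, 99.4% for MT1F, 85.3% for MT1G, 86.2% for MT1E and 82.3% for MT1M. SLC30A1 reached 100% and MTF1 98.6%. How the counting treated a read that fits several places is not given in the sources used here, so the counts of MT1G, MT1E and MT1M are the least certain. The exons of MT1X also overlap those of the lncRNA ENSG00000259827 on the same strand, which had 0 reads in every column.

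MT2A was the main metallothionein transcript of these cells, MT1X came next, MT1G and MT1F were low, and MT1E and MT1M were not detected. Per length (RPKM, the CPM divided by the exon length in kilobases, averaged over the 8 stable-line conditions), the levels were 109 for MT2A, 22.3 for MT1X, 8.41 for MT1G, 1.35 for MT1F, 4.19 for SLC30A1 and 2.45 for MTF1. The same means over the 4 siRNA samples were 37.1 for MT2A, 7.92 for MT1X, 6.34 for MT1G and 0.906 for MT1F. SLC30A1 and MTF1, at 4.41 and 4.19 RPKM there, stood between MT1G and MT1F in both experiments on this length, which joins all annotated exons. That length was 1852 bases for MT1F, against 425 in its MANE transcript, the representative one of the annotation. For SLC30A1 both lengths were 5893 bases, so the place of MT1F in this order depends on the length used. For MT2A they were 914 and 401 bases and for MT1X 1727 and 404, so the gap between these 2 genes depends on it too.

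MT1E and MT1M had 0 reads in 20 of 20 columns. With 118650251 counts in all columns together, 3 counts being the limit that a count of 0 allows, their level could be up to 0.0253 CPM. This limit covers counting error only, as do all intervals given here, since the reads carry no molecular identifiers. Of the 16 metallothionein genes in the tables, 9 were at 0 in every column. The other 7 of these were MT1A, MT1B, MT1H, MT4 and the pseudogenes MT1L, MT1JP and MT1CP. The exons of MT1B, MT1L, MT1JP and MT1CP overlap those of another annotated gene entry on the same strand. How a read that fits both was counted is not given in the sources used here, so their counts of 0 are less certain. The remaining 3 of the 16 genes had few reads and completed the family, with 77 reads in all for MT3 (the form known from brain), 19 for the pseudogene MT1DP and 9 for MT1HL1. Of the 77 MT3 reads, 76 were in the stable lines among 81301082 counts and 1 in the siRNA samples among 37349169 counts.

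Silencing of EHMT1 was examined first, by edgeR's quasi-likelihood test over 14532 genes with Benjamini-Hochberg adjustment. No member was called at an adjusted p under 0.05 (0 of 6 tested, also 0 with limma-voom, and 0 at an unadjusted p under 0.05, while DESeq2 gave none of the 6 an adjusted p). Over all genes this comparison called 0.131%, with 0.0619% higher and 0.0688% lower, and 9.55% had an unadjusted p under 0.05. The median log2 fold change of the 6 members was 0.10, beside -0.002 over all genes tested.

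MT2A was 34.5 and 30.8 CPM in siNTC and 34.3 and 36.1 CPM in siEHMT1. In bulk RNA, fewer cells with a transcript and less of it per cell cannot be told apart. The groups overlapped, with means of 32.7 ± 2.58 and 35.2 ± 1.23 CPM (SD, n = 2 each). The log2 fold change was 0.11 (SE 0.12, adjusted p = 0.841 by edgeR).

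MT1X was 13.8 and 17.0 CPM in siNTC and 11.3 and 12.6 CPM in siEHMT1, so both silenced samples lay below both controls. The log2 fold change was -0.35 (SE 0.18, 95% interval -0.74 to 0.03, adjusted p = 0.564 by edgeR), which did not pass the test. The highest value came from siNTC replicate 2, and without that library the log2 fold change was -0.20. Within each sample, MT1X had 0.400 and 0.551 reads per MT2A read in siNTC and 0.328 and 0.350 in siEHMT1, where the 95% counting interval of siNTC replicate 1 (0.330 to 0.484) overlapped those of both silenced samples (0.264 to 0.408 and 0.292 to 0.419) and that of siNTC replicate 2 (0.424 to 0.717) overlapped neither.

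MT1G was 4.53 and 3.75 CPM in siNTC and 5.74 and 5.03 CPM in siEHMT1, from 19 to 63 reads a sample. The groups did not overlap, and the log2 fold change of 0.35 (SE 0.28, adjusted p = 0.73 by edgeR) did not pass. MT1F was at 1.61 and 1.58 CPM in siNTC and at 2.40 and 1.12 CPM in siEHMT1. These rest on 8 to 23 reads, and a difference of the sizes allowed by the fit (log2 -0.90 to 1.1) was not detectable at this depth. On TMM sizes, the summed level of MT2A, MT1X, MT1G and MT1F was 53.2 to 54.9 CPM across the 4 samples, from 269 to 687 reads. MT2A made up 58.0% to 65.8% of this sum. The narrow range depended on the scaling. On total counts each of these genes was higher than on TMM sizes in siNTC replicate 1 and lower in siNTC replicate 2. The sums of the siNTC samples thus lay further apart on that scale.

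SLC30A1, the exporter, was 25.3 and 25.1 CPM in siNTC and 28.3 and 25.2 CPM in siEHMT1 (log2 fold change 0.08, SE 0.14, adjusted p = 0.894 by edgeR). MTF1 was 29.8 and 31.4 CPM in siNTC and 30.8 and 41.9 CPM in siEHMT1. Its higher mean in the silenced samples (log2 fold change 0.25, SE 0.14, adjusted p = 0.599 by edgeR) came from replicate 2 alone, without which it was 0.01. Without siNTC replicate 2, the library rich in the ribosomal RNA-like pseudogenes, the log2 fold changes were 0.03 for MT2A, 0.24 for MT1G, 0.07 for MT1F, 0.08 for SLC30A1 and 0.29 for MTF1. The share of mitochondrial reads was 22.3% and 24.9% in siNTC and 26.8% and 28.2% in siEHMT1. The summed level of the 2 endothelial markers in the tables was 7.71 to 9.26 CPM in siNTC and 15.6 to 16 CPM in siEHMT1, all of it VWF, with CDH5 at 0. That of the 5 stromal markers was 20.0 to 21.5 CPM and 24.8 to 25.4 CPM, with 2 of the 5 at 0 in every siRNA sample, and ACTA2, a smooth muscle actin, had the smallest p of these (log2 fold change 1.03, adjusted p = 0.166 by edgeR). The part of these shares and markers in the values above was not tested.

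**Figure D2:**
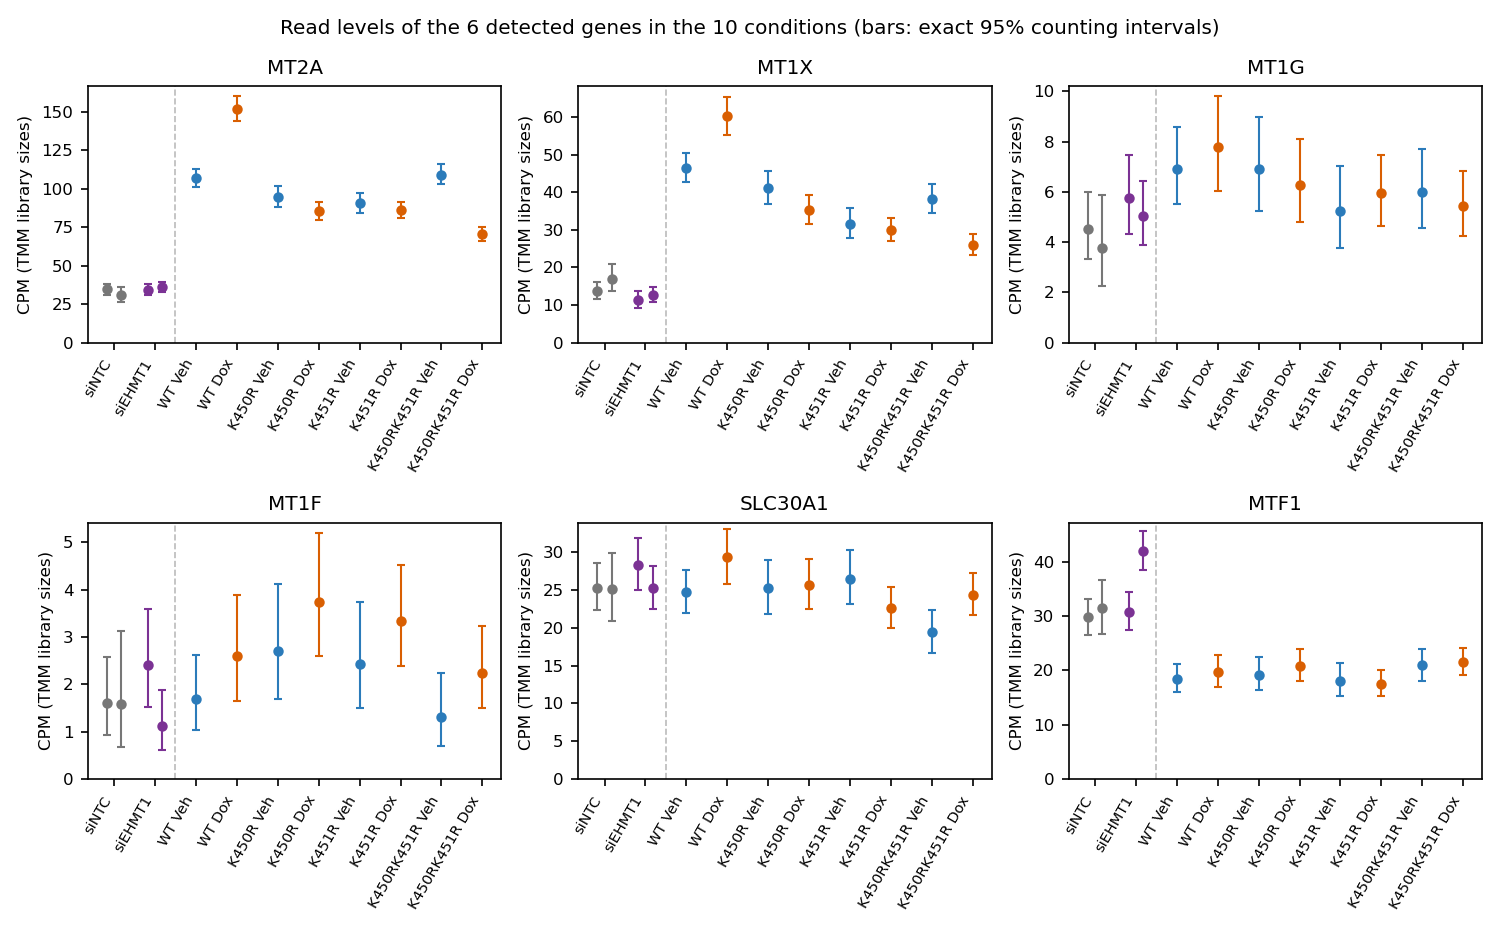
Levels of the 6 detected members in CPM (y axis, linear from 0) in the 10 conditions (x axis), with 1 point for each siRNA sample (grey siNTC, purple siEHMT1) and for each summed stable-line condition (blue Veh, orange Dox), and exact 95% counting intervals as bars. The dashed line separates the experiments. MT2A reaches 152 CPM in WT Dox and 70.5 CPM in K450RK451R Dox, while MTF1 in the stable lines stays between 17.5 and 21.5 CPM.

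The wider zinc and stress pathways were then examined in the silenced cells, and 0 of 51 tested genes in 5 other lists were called by edgeR or limma-voom, and 0 of the 29 to which DESeq2 gave an adjusted p, where edgeR called 0.131% of all genes. At an unadjusted p under 0.05 there were 10 of the 51 by edgeR, where 9.55% of all genes tested had one, with 6 by DESeq2 and 9 by limma-voom. Of the 10 by edgeR, 4 were among the 11 tested SLC39 genes. All 6 tested genes among the other SLC30 transporters, most but not all of which are known for moving zinc out of the cytosol, had a negative log2 fold change (median -0.19). The smallest p was that of SLC30A10 (-1.23, SE 0.51, adjusted p = 0.436 by edgeR). Among the SLC39 zinc importers, which bring zinc into the cytosol, 8 of 11 tested were negative (median -0.14). SLC39A6 had the smallest p of these, at -0.39 (SE 0.087, adjusted p = 0.0918). Over all genes, 7326 of 14532 were negative. The smallest p was that of SOD1, the copper-zinc superoxide dismutase, among 12 copper-handling genes (0.24, adjusted p = 0.375), of NQO1, a quinone reductase, among 12 targets of NRF2 and oxidative stress (0.32, adjusted p = 0.232), and of PDK1, a pyruvate dehydrogenase kinase, among 10 tested hypoxia targets (-0.27, adjusted p = 0.519).

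In the stable lines the response to Dox was asked in 2 ways, as the part that the 4 lines shared and line by line. For the shared part, the 4 lines served as replicates with the line as a block. None of the 6 tested members passed (0 by edgeR and limma-voom, 0 of the 4 to which DESeq2 gave an adjusted p, and 0 at an unadjusted p under 0.05). Of 14105 genes 2.11% were called, 0.603% higher and 1.51% lower, and 14.4% had an unadjusted p under 0.05. The fitted log2 fold changes of Dox over Veh were -0.08 for MT2A (SE 0.10, adjusted p = 0.786), -0.10 for MT1X (SE 0.10, adjusted p = 0.731), 0.02 for MT1G (SE 0.19, adjusted p = 0.978), 0.10 for SLC30A1 (SE 0.11, adjusted p = 0.737, and 0.02 to 0.20 when 1 line was left out) and 0.05 for MTF1 (SE 0.11, adjusted p = 0.887). For MT2A the lines went opposite ways. Without the WT line, MT2A was lower with Dox by a log2 fold change of -0.29 (adjusted p = 0.0457 by edgeR, in a fit that called 501 genes), and without the K450RK451R line the value was 0.10 (adjusted p = 0.716 by edgeR).

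Line by line there is 1 sample a side, so both values are given with 95% counting intervals and no test. In the WT line, MT2A was 107 CPM with Veh (1268 reads) and 152 CPM with Dox (1348 reads), a fold of 1.42 (interval 1.31 to 1.53). In the K450RK451R line it was 109 CPM with Veh and 70.5 CPM with Dox, a fold of 0.646 (0.591 to 0.706). The Veh levels of these lines were within counting error of each other, at a ratio of 1.02 (0.939 to 1.11), and with Dox the K450RK451R line held 0.464 of the WT level (0.426 to 0.505).

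The single mutants lay between. MT2A was 94.7 CPM with Veh and 85.3 CPM with Dox in K450R, a fold of 0.901 (0.815 to 0.996). It was 90.4 and 85.9 CPM in K451R, a fold of 0.95 (0.864 to 1.05). The sign in K451R depended on the scaling, since on total counts the log2 fold was 0.06 rather than -0.07.

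MT1X followed the same order. Its fold was 1.29 (1.15 to 1.46) in WT, from 46.5 to 60.2 CPM. The folds were 0.860 (0.736 to 1.00) in K450R, from 41.1 to 35.3 CPM, and 0.948 (0.806 to 1.11) in K451R, from 31.6 to 29.9 CPM, although on total counts the log2 fold in K451R was 0.05 rather than -0.08. In K450RK451R it was 0.677 (0.582 to 0.786), from 38.2 to 25.9 CPM. For both genes WT Dox was thus the highest of the 8 conditions and K450RK451R Dox the lowest. The difference between the lines was not tested, since each has a single independent sample per treatment. Opposite directions of this kind, with WT higher and K450RK451R lower beyond the counting intervals, were also seen in 348 of 14040 genes (2.48%, or 1.39% on total counts). In the other lists 4 of 52 tested genes had them (SLC2A1, NDRG1, SLC31A1 and SLC39A9). On total counts the 4 were SLC2A1, NDRG1, NFE2L2 and SQSTM1.

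**Figure D3:**
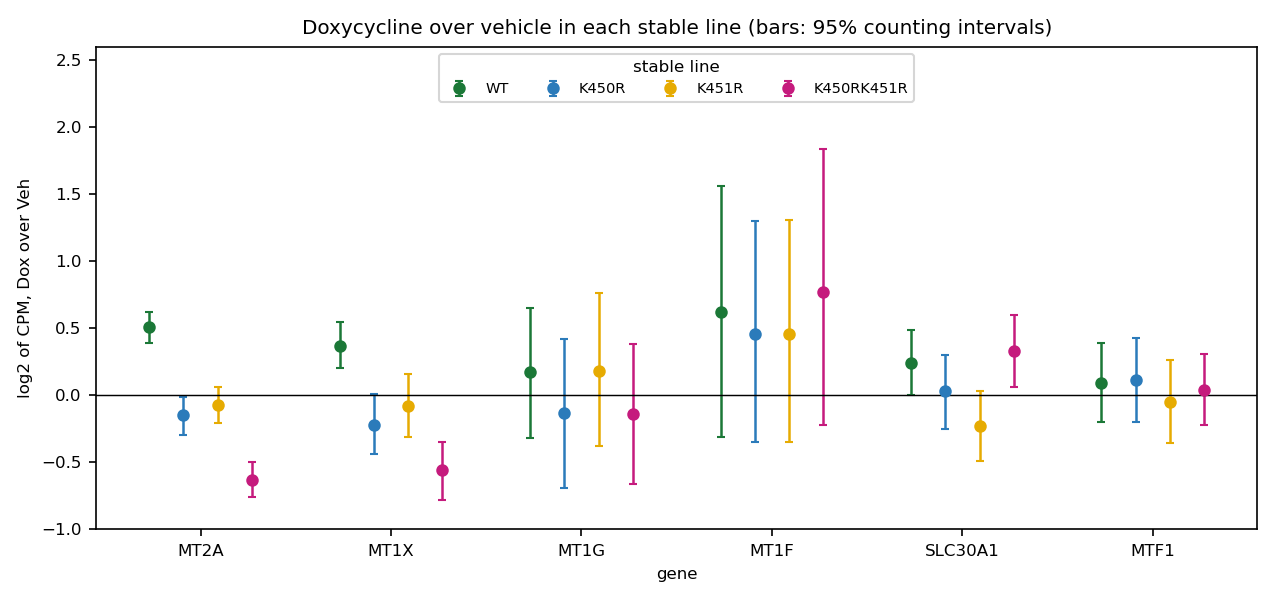
The log2 of CPM with Dox over CPM with Veh (y axis) for each detected member (x axis) in the 4 stable lines (colours), with 95% counting intervals as bars. For MT2A and MT1X the WT line lies above 0 (0.51 and 0.37) and the K450RK451R line below 0 (-0.63 and -0.56), with intervals that do not reach 0, and no line of MT1G, MT1F or MTF1 has an interval clear of 0.

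In order, the MT2A levels of the 8 conditions were 152 (WT Dox), 109 (K450RK451R Veh), 107 (WT Veh), 94.7 (K450R Veh), 90.4 (K451R Veh), 85.9 (K451R Dox), 85.3 (K450R Dox) and 70.5 CPM (K450RK451R Dox). The counting intervals of WT Dox (144 to 160) and of K450RK451R Dox (66.0 to 75.2) did not touch those of their neighbours, and every other pair of neighbours overlapped. On total counts the lowest of these was 77.1 CPM, and its interval (72.1 to 82.2) overlapped that of K450R Dox (77.8 to 89.4), while WT Dox (141 to 157) stayed clear of its neighbours. The intervals leave out the spread between cultures.

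MT1G was between 5.23 and 7.78 CPM over the 8 conditions, from 43 to 82 reads. Its folds with Dox were 1.12 in WT and 1.14 in K451R, against 0.911 in K450R and 0.906 in the double mutant, and the interval of each contained 1.

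MT1F behaved unlike MT2A, with a higher level in Dox in 4 of 4 lines. The WT line had 1.69 CPM with Veh and 2.59 CPM with Dox, the K450R line 2.71 and 3.73, the K451R line 2.43 and 3.34 and the K450RK451R line 1.32 and 2.25. Veh and Dox overlapped across the lines, the counts were only 13 to 41 reads, and each line's interval contained 1. Over the 4 lines the log2 fold change was 0.55 (SE 0.29, 95% interval -0.04 to 1.15, adjusted p = 0.39 by edgeR), which did not pass the test.

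SLC30A1 was, like MT2A, highest in WT Dox among the 8 conditions, but it went the other way in the K450RK451R line. It was 24.7 CPM with Veh and 29.3 CPM with Dox in WT, a fold of 1.18 (0.999 to 1.41). In K450RK451R, where MT2A and MT1X were lower with Dox, SLC30A1 was 19.4 and 24.3 CPM, a fold of 1.26 (1.05 to 1.51). The folds were 1.02 (0.841 to 1.23) in K450R and 0.854 (0.712 to 1.02) in K451R. MTF1 lay between 17.5 and 21.5 CPM in all 8 conditions, with folds of 0.966 to 1.08, and the interval of each contained 1.

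The summed level of MT2A, MT1X, MT1G and MT1F was 162 CPM with Veh and 222 CPM with Dox in WT, and the K450R line had 145 and 131 CPM, the K451R line 130 and 125 CPM and the K450RK451R line 155 and 104 CPM. Its makeup changed little beside its size. MT2A made up 65.1% to 70.6% of these reads in the 8 conditions, and MT1X had 0.348 to 0.435 reads for each MT2A read.

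**Figure D4:**
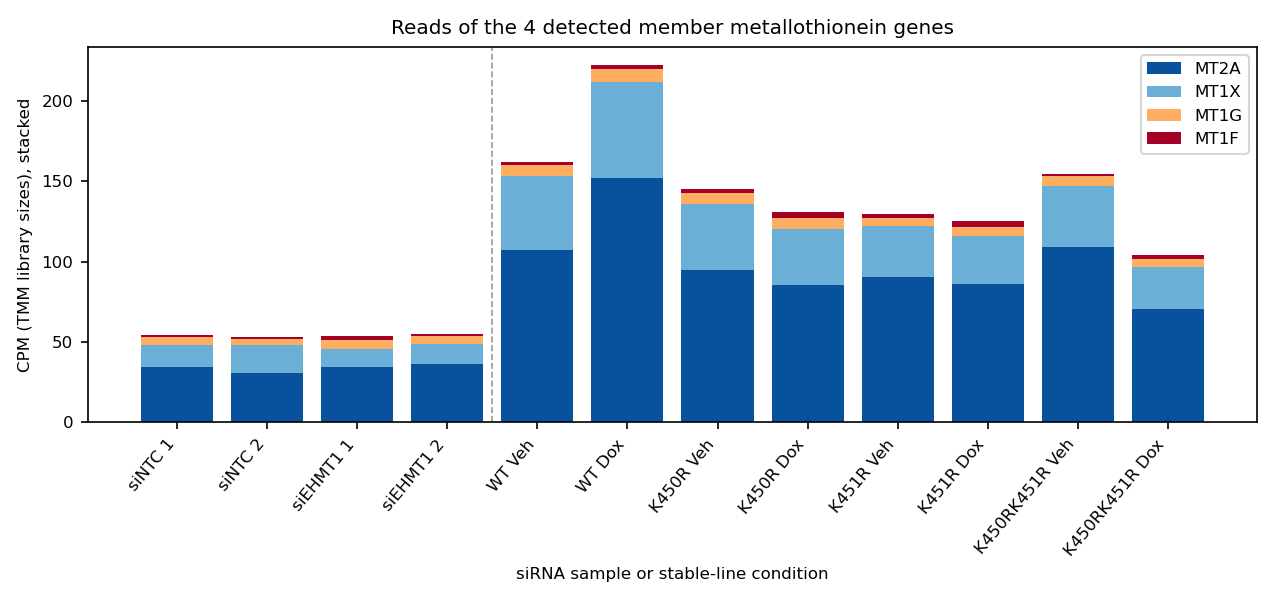
Stacked levels of the 4 detected metallothionein members in CPM (y axis, from 0) in the 4 siRNA samples and the 8 summed stable-line conditions (x axis), with 1 colour per gene and no error bars. The siRNA samples reach 53.2 to 54.9 CPM, the WT Dox condition 222 CPM and the K450RK451R Dox condition 104 CPM, and MT2A is the largest part of each bar.

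Library composition differed between the conditions too. The mitochondrial share of counts went from 13% with Veh to 9.76% with Dox in WT, from 14.4% to 10.4% in K451R and from 12.3% to 8.04% in K450RK451R, and from 12% to 13.7% in K450R. The part of this share in the values above was not tested. With total counts in place of TMM, all log2 values shifted by 0.14 in K450RK451R, 0.13 in K451R, 0.04 in WT and 0.02 in K450R, and the fold of MT2A in K450RK451R became -0.49 on the log2 scale in place of -0.63.

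The siRNA samples and the stable lines are separate experiments, so their levels can only be set side by side. MT2A was 30.8 to 36.1 CPM in the siRNA samples and 90.4 to 109 CPM in the stable lines with Veh. MT1X was 11.3 to 17.0 CPM and 31.6 to 46.5 CPM. MTF1 had the opposite order, at 29.8 to 41.9 CPM and 18.1 to 20.9 CPM, and SLC30A1 overlapped, at 25.1 to 28.3 CPM and 19.4 to 26.5 CPM. Transfection, the inserted construct, selection and the sequencing of the experiments cannot be told apart here. The share of mitochondrial reads was also apart, at 22.3% to 28.2% and, with Veh, 12% to 14.4%.

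The wider pathways were described in the same fit. Among the other SLC30 zinc transporters, 2 of 6 tested rose with Dox over the 4 lines and none fell, where 0.603% of all genes rose. SLC30A4, which loads zinc into vesicles, rose by a log2 fold change of 0.28 (SE 0.071, adjusted p = 0.034 by edgeR). The WT line had 93.4 CPM of it with Veh and 92.5 CPM with Dox, the K450R line 69.6 and 91.8, the K451R line 94.2 and 116 and the K450RK451R line 76.8 and 103, so its level differed in the mutant lines and not in WT beyond counting error. SLC30A6, a transporter of the Golgi, rose by 0.44 (SE 0.12, adjusted p = 0.0409 by edgeR) and was higher with Dox in 4 of 4 lines, with folds of 1.19 to 1.51. With limma-voom the adjusted p of SLC30A6 was 0.0504, so its call was lost there too. Both calls were lost with DESeq2 (adjusted p = 0.112 and 0.162) and without any 1 of the mutant lines (adjusted p = 0.133 to 0.262).

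Of 11 tested SLC39 importers none was called, and the smallest p was that of SLC39A3, an importer of the plasma membrane (0.33, SE 0.095, adjusted p = 0.0628 by edgeR). None of 12 copper-handling genes was called, with the smallest p for the metalloreductase STEAP3 (0.63, SE 0.18, adjusted p = 0.0571 by edgeR). None of 12 targets of NRF2 and oxidative stress was called either, with the smallest p for SLC7A11, the cystine importer (0.23, SE 0.077, adjusted p = 0.119 by edgeR). DESeq2 and limma-voom also called 0 in these 3 lists. At an unadjusted p under 0.05 edgeR had 2 importers, 2 copper genes and 4 NRF2 targets, where 14.4% of all genes tested had one. HMOX1, the inducible haem oxygenase that metals also raise, was chosen after its value was seen, and its log2 fold change was 0.23 (SE 0.09, adjusted p = 0.215 by edgeR).

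Hypoxia targets were listed because hypoxia is also known to raise metallothionein genes. Of 11 tested, 5 fell over the 4 lines and none rose, where 1.51% of all genes fell (median log2 fold change -0.32 for the list, 0.01 over all genes). They were VEGFA (-0.43), the angiogenic growth factor, ANKRD37 (-0.59), SLC2A1 (-0.38), the glucose transporter, KDM3A (-0.32), a histone demethylase, and CA12 (-0.31), a carbonic anhydrase. By line, 4 of the 11 were higher with Dox in WT and 1 of 11 in each mutant line. Over all genes tested, 7221 of 14107 were higher with Dox in WT, 7238 of 14111 in K450R, 7072 of 14116 in K451R and 7094 of 14111 in K450RK451R. SLC2A1 was 364 CPM with Veh and 391 CPM with Dox in WT. The K450R line had 345 and 248 CPM, the K451R line 282 and 198 CPM and the K450RK451R line 284 and 181 CPM, so its WT and K450RK451R values were at the ends of the order, as they were for MT2A. VEGFA differed from MT2A, being lower with Dox in 4 of 4 lines. A link between the hypoxia targets and the metallothionein levels was not tested. ANKRD37 and SLC2A1 lost their call with DESeq2 (adjusted p = 0.188 and 0.353). SLC2A1 lost it without the K450R or the K450RK451R line (adjusted p = 0.0936 and 0.0561 by edgeR), as KDM3A did without the K450RK451R line (0.0806).

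**Figure D5:**
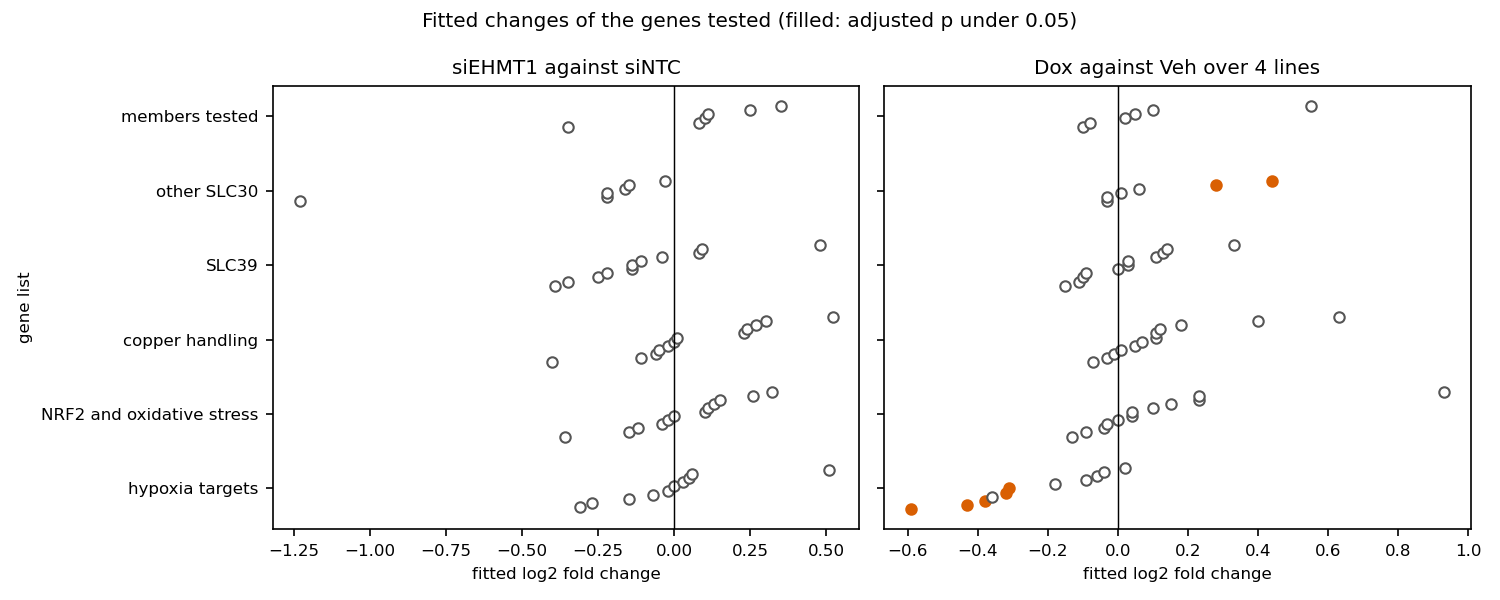
Fitted log2 fold changes (x axes, with separate ranges) of the tested genes of 6 lists (y axis), for siEHMT1 against siNTC (left) and for Dox against Veh over the 4 lines (right), with 1 circle per gene, filled where the adjusted p was under 0.05. No circle is filled on the left. On the right 2 of the other SLC30 genes (0.28 and 0.44) and 5 hypoxia targets (-0.31 to -0.59) are filled, and no member is.

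Finally, genes were ranked by how closely their levels followed MT2A, by Pearson's r of log2(CPM + 1) over the 8 stable-line conditions, among 9082 genes with a mean of at least 10 CPM. The points share lines and library scaling, so r is a description and has no p. The 5 highest were NXPH4 (0.967), MYO5B (0.959), MRPL54 (0.955), FAM177A1 (0.954) and RALB (0.948). MT1X followed at rank 8 (0.936). Among the other members r was 0.772 for MT1G, 0.282 for SLC30A1, -0.112 for MTF1 and -0.277 for MT1F.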

How the data were processed

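RNA-seq was analysed for 4 siRNA samples and 16 stable-line columns. The authors deposited 2 tables of raw counts, whole reads per Ensembl gene. Libraries were stranded total RNA, sequenced as single-end reads of 51 nt and mapped to hg19. The submitters' processing notes name FastQC 0.11.9, STAR 2.7.2 and featureCounts 1.6.4. The strand setting and annotation release are not given in the sources used here. Both tables were matched to samples by column name, with all 20 columns used.

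Counts were tested with edgeR 4.0.16 in R 4.3.3 (TMM, default filter by group, quasi-likelihood, Benjamini-Hochberg over all genes tested, threshold 0.05). The 4 siRNA samples had a fit of their own, and so had the 8 summed conditions, with line and Dox as terms. In total counts, 3 reads were 0.241 to 0.536 CPM across the siRNA samples and conditions. DESeq2 1.42.0, limma 3.58.1 (voom), other normalizations, filters and left-out samples were alternatives. Leaving out the 2 ribosomal RNA-like pseudogenes was an alternative chosen after seeing the data. Exon lengths came from GENCODE v44 on GRCh37, so RPKM depends on that annotation. Intervals of single counts and of folds within a line are exact (Clopper-Pearson for folds).

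All 8 members were described, with EHMT1 and, in each other list, every called gene or else that with the smallest p. The members and lists were chosen with earlier results of these data known.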

Additional observations from a re-analysis of the deposited data

Results flagged for a closer look

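Among the members and the called genes of the other lists, 3 genes stood out because lines went opposite ways with Dox by more than their counting intervals. MT2A had a log2 fold of 0.51 in the WT line and of -0.15 in K450R. The K450R interval ended at -0.01, and with total counts or upper-quartile scaling all K450R values shifted up by 0.02, so this pair was flagged on TMM sizes only. MT2A in the WT line (0.51) also went against K450RK451R (-0.63). MT1X had 0.37 in WT and -0.56 in K450RK451R. SLC2A1, the glucose transporter, had 0.10 in WT against -0.47 in K450R, -0.51 in K451R and -0.65 in K450RK451R. Some pair of lines differed in this way in 10.7% of 14040 genes. These differences were not tested, since each line has 1 independent sample per treatment, and the counting intervals do not hold the spread between cultures. Over the 4 lines, the Veh levels, the Dox levels and the Dox effects of the 6 detected members made 18 groups of 4 values. None held a value past the 95% critical value of Dixon's test. With 4 values a group only a very wide gap passes that test, so it cannot show that no line stood apart. The Dox levels of MT2A, 152 CPM in WT and 70.5 to 85.9 CPM in the mutant lines, were not flagged by it.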

How the results depend on the processing

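The count of members called stayed at 0 under every alternative of the siRNA comparison that gave members an adjusted p, which DESeq2 did not. Over the 4 lines it ranged from 0 to 1 when each line was left out, the 1 being MT2A without the WT line (log2 -0.29, adjusted p = 0.0457 by edgeR), and was 0 under all other alternatives. Of 72 siRNA values of single members, 69 kept direction and side of the threshold, and of 88 over the lines, 82 did. In fits without 1 siRNA sample, the lone sample of a group is assumed to vary like the other group. The siRNA log2 fold change of MT1F turned to -0.04 with limma-voom and ranged from -0.51 to 0.59 without 1 sample, and that of SLC30A1 from -0.00065 to 0.17, both lowest without siEHMT1 replicate 1. Without 1 line, MT2A ranged from -0.29 to 0.10 and MT1X from -0.29 to 0.05 (both lowest without WT, highest without K450RK451R), MT1G from -0.04 to 0.08 (-0.02 without K451R), and SLC30A1 from 0.02 (without K450RK451R) to 0.20 (without K451R). MT1G was -0.01 without the line block. The cause was not tested. On total counts, MT2A in K450RK451R had a log2 fold of -0.49, its Dox level being 77.1 CPM. The deviations of same-numbered siRNA samples from their group means were hardly correlated (Pearson -0.00226, Spearman 0.0293 over 14532 genes). With 2 samples a group this cannot settle whether the numbers pair the samples. With the replicate block, 118 genes were called in place of 19, and MT1X had -0.36 (adjusted p = 0.476). The siRNA comparison called 12 genes with DESeq2, 12 with no filter and 38 to 110 without 1 sample. Over the lines, 298 genes were called in the comparison reported, 140 with DESeq2, 4 without the line block and 114 to 501 without 1 line. Treating the 16 columns as replicates called 2047, or 1928 with the replicate block. Of the called genes named, only EHMT1 kept its call without the line block. The counts of MT1F were 13 to 41 reads a condition, the lowest of the 6 detected members.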
